A study of Mus musculus with 30 samples.

Results

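Mitochondrial ribosomal proteins are the protein subunits of the ribosome that works inside mitochondria. The members described here are the 78 protein-coding genes of the Ensembl GRCm38 annotation whose symbol is Mrpl or Mrps followed by a number and, in a few cases, by the letter a, b or c. They were picked by symbol alone out of 54532 genes in the count table, and the group was chosen with earlier results of these data known. Of these, 51 encode proteins of the large subunit, 26 encode proteins of the small subunit, and *Mrps36* is counted apart. All 78 passed the filter on low counts in each of the 12 comparisons made. The genes lie on 17 chromosomes. RNA came from murine erythroleukemia (MEL) cells, a mouse leukemia line that turns toward red cell precursors and makes hemoglobin when treated with DMSO. WT and Abcb10-null MEL cells were sampled at day 0, before DMSO, and at days 2 and 5 of treatment with 1.5% DMSO, with 5 libraries for each genotype and day that the labels call biological replicates. Abcb10 encodes an ATP-binding cassette transporter of the mitochondrial inner membrane. According to the methods, the Abcb10-null cells are a single clone made by CRISPR/Cas9 with a lentiviral guide against the first exon, and the WT cells carried a control mCherry construct. The effect of losing Abcb10 and the difference between that clone and the WT cells therefore cannot be told apart in any comparison of genotypes.

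The mitochondrial ribosome translates the few messenger RNAs of the mitochondrial genome, all of which encode subunits of the respiratory chain and ATP synthase. Its ribosomal RNAs come from mitochondrial DNA, while its proteins are encoded in the nucleus, made in the cytosol and imported. Many of the proteins have a bacterial relative, and the rest are found only in mitochondrial ribosomes. Erythroid precursors rely on mitochondria for heme synthesis and lose them in the last steps of maturation.

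Total counts per library ran from 9906783 to 20157768, with a median of 16492116.5. Counts were scaled for library size (CPM, the count for each 1000000 counts of scaled library size), and differences were tested over all genes with edgeR's quasi-likelihood test. A gene is called higher or lower here when its Benjamini-Hochberg adjusted p over all genes tested was under 0.05. Transcripts of the targeted gene were lower in Abcb10-null than in WT cells on all 3 days, at 67.2 to 79.4 against 112 to 126 CPM at day 0 and 177 to 237 against 1152 to 1264 CPM at day 5. Of 14 erythroid marker genes, 11 reached 1 CPM in all 30 libraries, and the globin gene Hba-a2 stayed below 1 CPM in all of them after globin RNA depletion. Their summed level at day 5 ran from 11495 to 24893 CPM in WT and from 5327 to 6960 CPM in Abcb10-null cells, so the genotypes also differed in erythroid transcripts. Of 19 markers of other cell types, only the megakaryocyte genes Pf4 and Itga2b reached 1 CPM in every library. In bulk RNA, fewer cells of a type and less RNA per cell cannot be told apart.

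Levels were compared between members per kilobase of exon (FPKM, CPM divided by the length of all annotated exon bases). In WT cells at day 0 the members spread from 1.69 to 279 FPKM around a median of 34.5 FPKM. The highest were *Mrps21*, a small-subunit protein with a bacterial relative, at 279 ± 17.9 FPKM, *Mrpl18*, a protein of the central protuberance of the large subunit, at 214 ± 14.6, and *Mrpl20*, which binds the large-subunit RNA, at 190.4 ± 9.87 (SD, n = 5). The lowest were *Mrpl53* at 1.69 ± 0.492, *Mrpl23*, which lies beside the exit of the peptide tunnel, at 2.87 ± 0.376, and *Mrpl48* at 3.76 ± 0.228. Of these, the value of *Mrpl53* rests on few counts and on exons shared with another gene, Gm42688. Transcript levels thus differed widely among proteins that mostly occur once in each ribosome. Of the 77 pairs of neighbours in that order, 70 overlapped between libraries, so adjacent places in it were not resolved. When the longest transcript replaced the exon length, 8 of the 10 highest members stayed among the 10 highest. The median over members was 34.5, 18.96 and 15.03 FPKM at days 0, 2 and 5 in WT and 31.3, 24.1 and 18.2 FPKM in Abcb10-null cells.

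The summed level of all members followed the same course. In WT cells at day 0 it was 8071, 7933, 8002, 7371 and 7473 CPM in replicates 1 to 5. At day 2 it was 3971, 3993, 4949, 5235 and 4785 CPM, and at day 5 it was 4002, 2799, 3726, 3550 and 4165 CPM. Every library of days 2 and 5 lay below every library of day 0. Within day 2, replicates 1 and 2 were lower than replicates 3, 4 and 5. In Abcb10-null cells the sums were 6749, 6755, 7402, 7210 and 6719 CPM at day 0, and 5748, 5254, 5424, 5821 and 5292 CPM at day 2. At day 5 they were 3833, 4254, 4503, 3826 and 4282 CPM. The null libraries started below those of WT with 1 overlapping library and overlapped with them at day 5. At day 2 they lay above all of them, but narrowly, with the lowest null library at 5254 and the highest WT library at 5235 CPM. As a share of all counts the members took 0.737%, 0.503% and 0.370% in WT and 0.679%, 0.550% and 0.397% in Abcb10-null cells at days 0, 2 and 5 (means). By this measure the libraries of day 2 overlapped, from 0.442% to 0.570% in WT and from 0.532% to 0.582% in Abcb10-null cells.

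**Figure D1:**
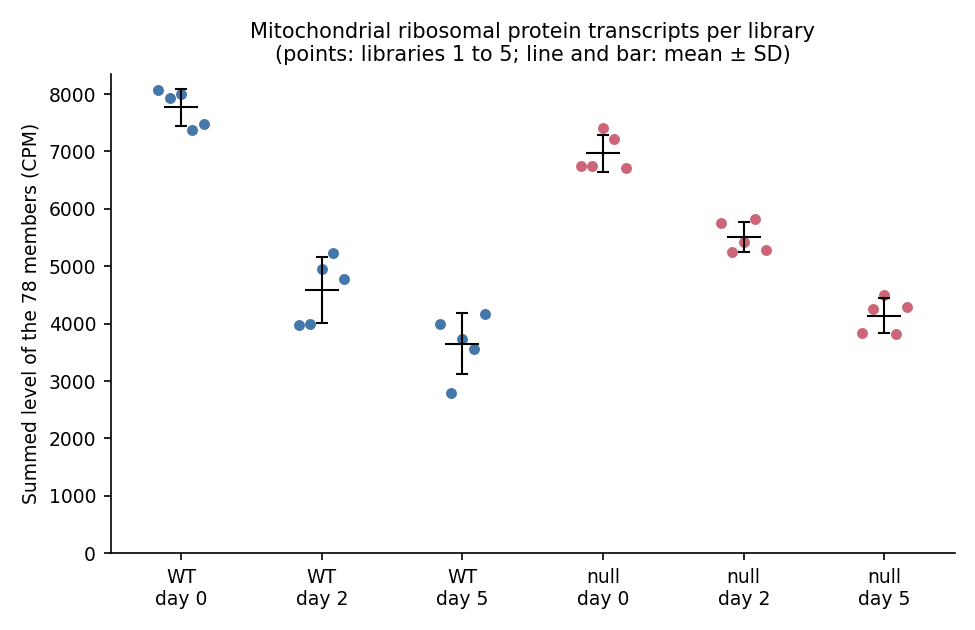
Summed level of the 78 mitochondrial ribosomal protein transcripts in CPM (vertical axis) for each genotype and day (horizontal axis), with 1 point per library and the mean ± SD of 5 libraries. WT cells fell from 7770 ± 324 to 3648 ± 531 CPM and Abcb10-null cells from 6967 ± 317 to 4140 ± 299 CPM between days 0 and 5.

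The first question was how these transcripts changed as WT cells differentiated. By day 5 of DMSO, 73 of the 78 members were lower than at day 0 and none was higher, with a median log2 fold change of -1.12, or 45.9% of the starting level. Over all genes tested, 34.7% were called lower and 36.5% higher, with a median of 0.02. Every library of day 5 lay below every library of day 0 for 69 members, against 28.6% of all genes tested. Most of the drop was in place at day 2, when 69 members were lower (median -0.75, against 30.7% of all genes tested lower). Between days 2 and 5 another 30 members were lower and none higher (median -0.35, with 16.4% of all genes lower). That last count was 19 without WT replicate 3 of day 2, 16 without replicate 4 of day 2 and 17 without replicate 4 of day 5.

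**Figure D2:**
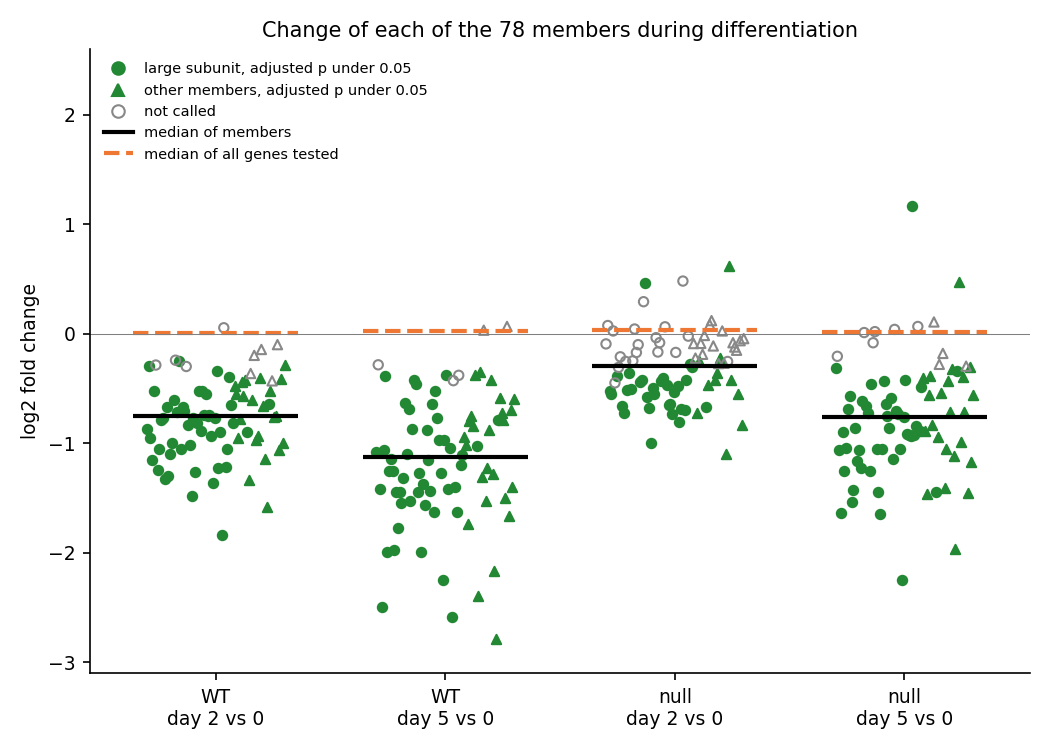
log2 fold change of each member (vertical axis) at days 2 and 5 against day 0 in WT and Abcb10-null cells (horizontal axis). Filled symbols are called, open symbols are not, circles are the large subunit and triangles the other members, the black line is the median of the members and the dashed line that of all genes tested. The members' medians were -0.75 and -1.12 in WT and -0.29 and -0.76 in Abcb10-null cells, and those of all genes lay near 0.

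The decline ran through every structural class of the ribosome. In the large subunit, 29 of 30 proteins with a bacterial relative and 19 of 21 found only in mitochondria were lower at day 5, with medians of -1.26 and -1.03. In the small subunit the counts were 15 of 16 and 10 of 10, with medians of -0.86 and -1.25. By this split *Mrps18a* and *Mrps18b*, paralogs of a bacterial protein, are counted among the proteins found only in mitochondria.

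The deepest fall was that of *Mrps28*, the small-subunit relative of bacterial protein S1. Its level in WT libraries was 69.9, 64.5, 52.2, 51.5 and 59.4 CPM at day 0, 15.5, 14.1, 23.6, 23.99 and 22.02 CPM at day 2 and 8.24, 4.34, 9.37, 8.46 and 12.6 CPM at day 5. The 3 days did not overlap. Its log2 fold change to day 5 was -2.79 ± 0.21 (± standard error, here and below), which leaves 14.5% of the starting level. Between days 2 and 5 alone it was -1.20.

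*Mrpl52*, a large-subunit protein without a bacterial relative, had 97.6, 106, 88.7, 83.3 and 95.7 CPM at day 0 and 15.5, 10.5, 16.05, 12.5 and 23.8 CPM at day 5. Every library of day 5 was far below every library of day 0. The change was -2.59 ± 0.18, of which -1.84 was reached by day 2, the largest early fall of any member. *Mrps18b*, one of the mammalian S18 paralogs, fell from 30.1 ± 2.44 to 5.71 ± 0.835 CPM (-2.40 ± 0.13), and an antisense gene covers 30.5% of its exon bases. *Mrpl47*, which sits near the exit of the peptide tunnel, fell from 65.9 ± 5.18 to 13.9 ± 1.87 CPM (-2.25 ± 0.12).

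By role, the stalk draws translation factors to the large subunit. *Mrpl12*, the mobile stalk protein, had 164, 169, 155, 133 and 151 CPM at day 0 and 33.6, 21.3, 28.6, 23.9 and 30.2 CPM at day 5, a log2 fold change of -2.49 ± 0.13. *Mrpl11*, at the stalk base, changed by -1.41 ± 0.13, and *Mrpl10*, which anchors *Mrpl12*, by -0.28 ± 0.13 and was not called (edgeR adjusted p = 0.0682). Of the 8 alternatives tried, *Mrpl10* was called only with all 30 libraries in one fit (edgeR adjusted p = 0.047).

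In the conserved core of the large subunit, *Mrpl2*, which lies next to the peptidyl transferase center, changed by -1.45, *Mrpl3* by -1.53 and *Mrpl4* by -1.15. On the side where the new chain leaves, *Mrpl23* changed by -1.32, *Mrpl24* by -0.63, *Mrpl39* by -0.88, *Mrpl44*, which has an RNase III fold, by -0.77, and *Mrpl45*, which ties the ribosome to the inner membrane, by -0.97. In the central protuberance, *Mrpl18* changed by -1.25, *Mrpl38* by -1.57 and *Mrpl46* by -1.27. *Mrpl58*, a relative of release factors that also frees stalled ribosomes, changed by -1.19. All of these were called lower, and they spread from -0.63 to -1.57.

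In the small-subunit core, *Mrps5* changed by -1.66, *Mrps7* by -1.40, *Mrps11* by -1.01, *Mrps12*, a protein of the decoding center, by -1.74, and *Mrps16* by -0.84. Among proteins found only in mitochondrial ribosomes, *Mrps22* changed by -1.53, *Mrps27*, a pentatricopeptide repeat protein, by -2.17, and *Mrps34* by -0.78. Of the exon bases of *Mrps34*, 63.4% are shared with Mapk8ip3 on the opposite strand and 37.0% with Nme3 on the same strand, so its counts may hold reads of those genes. *Mrps30*, which despite its name belongs to the large subunit, changed by -0.79. All of these were called lower as well.

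In WT cells, 5 members were not called between days 0 and 5. *Mrps21* had 223, 207, 215, 196 and 191 CPM at day 0, 136, 138, 225, 197 and 203 CPM at day 2 and 229.8, 156, 236, 220.1 and 215 CPM at day 5. The days overlapped, with replicates 1 and 2 of day 2 and replicate 2 of day 5 lowest. By day 5 it had changed by 0.03 ± 0.11 (edgeR adjusted p = 0.795), so no change was detectable in the member with the highest level per length at day 0. *Mrps36*, which was first listed with the small subunit and is now placed in the 2-oxoglutarate dehydrogenase complex, had 16.6, 16.5, 15.6, 14.6 and 19.4 CPM at day 0 and 20.2, 11.9, 15.96, 20.03 and 18.6 CPM at day 5. The days overlapped and the change was 0.07 ± 0.15 (edgeR adjusted p = 0.704). The others were *Mrpl10* (above), *Mrpl57* at -0.38 ± 0.19 (edgeR adjusted p = 0.0857) and *Mrpl53* at -0.43 ± 0.31. *Mrpl57* was called lower without the filter on low counts, with all 30 libraries fitted together and with the replicate number as a block. *Mrpl53* was at about 1 CPM, with 7 counts in its lowest library, and 88.0% of its exon bases belong also to Gm42688 on the same strand, so that its values are uncertain. The highest values at day 2 were those of *Mrpl53* (0.06), *Mrps36* (-0.10), *Mrps25* (-0.14) and *Mrps21* (-0.20).

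**Figure D3:**
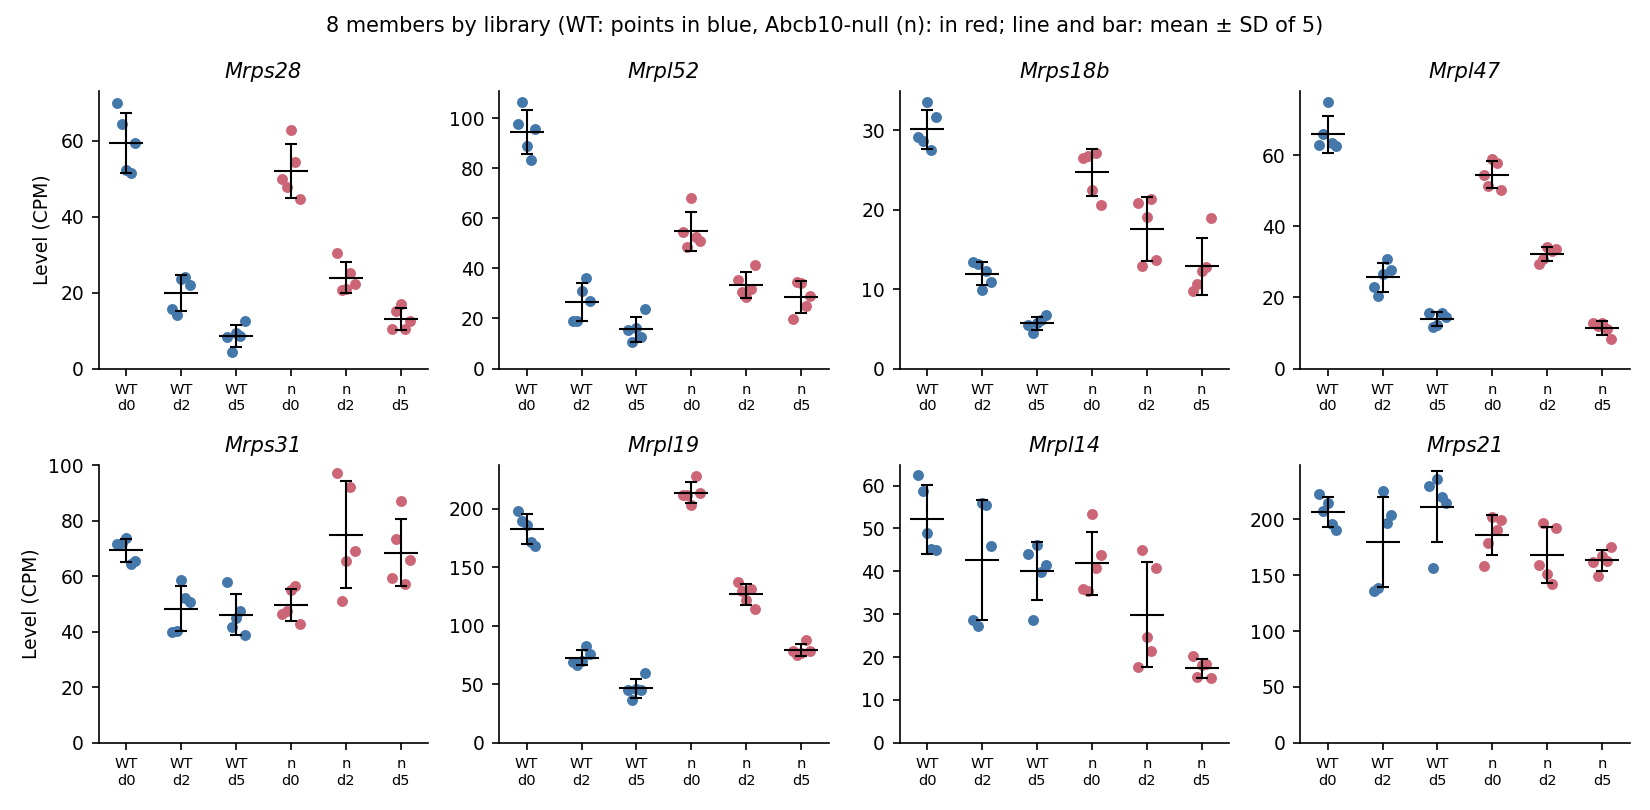
Level of 8 members in CPM (vertical axes) in each library of WT (blue) and Abcb10-null (red, n) cells at days 0, 2 and 5 (d0, d2, d5), with the mean ± SD of 5 libraries. *Mrps28*, *Mrpl52*, *Mrps18b* and *Mrpl47* fell in both genotypes, *Mrps31* rose only in Abcb10-null cells, *Mrpl19* was higher in Abcb10-null cells on each day, *Mrpl14* was lower in them at day 5, and *Mrps21* was not called in either genotype between days 0 and 5.

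The same transcripts also declined in Abcb10-null cells, by less. At day 5, 66 members were lower than at day 0 and 2 were higher, with a median log2 fold change of -0.76, or 59.2% of the starting level, where 33.3% of all genes tested were lower. All 66 were also lower in WT cells. At day 2 the count was 40 lower and 2 higher (median -0.29, with 20.1% of all genes lower), and between days 2 and 5 it was 44 lower and 0 higher (median -0.44, with 16.6% of all genes lower). By these medians the early step was the larger one in WT and the late step in Abcb10-null cells. The early and late steps were not tested against each other. The interactions given below compare the genotypes within each interval. Over the 78 members the changes to day 5 in the 2 genotypes had a Pearson r of 0.72, given as a description over genes measured in the same libraries.

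The members that fell most at day 5 in Abcb10-null cells were *Mrpl47* (-2.25 ± 0.12), *Mrps28* (-1.97 ± 0.15), *Mrpl36*, a small zinc-binding protein of the large subunit (-1.65 ± 0.11), and *Mrpl12* (-1.63 ± 0.11). *Mrpl47* had 54.5, 51.4, 58.9, 57.7 and 50.2 CPM at day 0, 29.4, 30.9, 34.2, 33.03 and 33.5 CPM at day 2 and 12.8, 12.02, 12.8, 11.1 and 8.18 CPM at day 5. No library of one day overlapped with another day. At day 5 its log2 fold change was -2.25 in WT and -2.25 in Abcb10-null cells, while at day 2 it was -1.36 in WT and -0.73 in Abcb10-null cells.

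*Mrps31*, a small-subunit protein found only in mitochondrial ribosomes, moved in opposite directions in the genotypes. In WT cells it had 71.5, 72.05, 73.7, 64.5 and 65.4 CPM at day 0 and 57.9, 41.6, 44.9, 47.7 and 38.9 CPM at day 5. In Abcb10-null cells it had 46.4, 47.6, 55.05, 56.6 and 42.9 CPM at day 0, 97.3, 51.03, 65.6, 92.1 and 69.1 CPM at day 2 and 59.3, 73.3, 87.3, 57.2 and 65.8 CPM at day 5. In each genotype the libraries of days 0 and 5 did not overlap. The log2 fold change to day 5 was -0.59 ± 0.11 in WT and 0.48 ± 0.12 in Abcb10-null cells. The other member higher at day 5 in Abcb10-null cells was *Mrpl53* (1.17), whose call was lost with DESeq2, with all genes tested, with the replicate block and in 4 of the 10 fits with 1 library removed. At day 2 the other member that rose was *Mrpl33* (0.47 ± 0.10), a large-subunit protein with a bacterial relative.

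**Figure D4:**
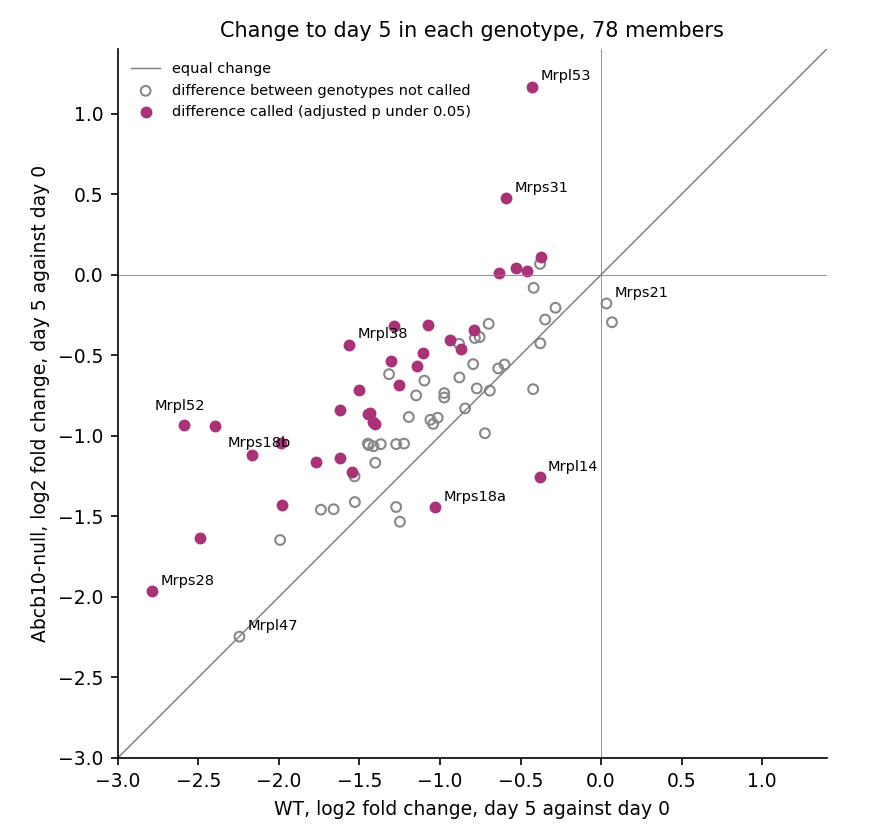
log2 fold change between days 0 and 5 of each member in WT (horizontal axis) and in Abcb10-null cells (vertical axis), with the line of equal change. Filled points are the 34 members whose change differed between the genotypes. In all, 67 members lie above the line, where the log2 fold change was higher in Abcb10-null cells, among them *Mrps31* and *Mrpl53*, which were called higher at day 5 in those cells.

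At day 0, before DMSO, the question was whether the clone already differed. Here 37 of the 78 members were lower in Abcb10-null than in WT cells and 2 were higher, with a median log2 fold change of -0.18, or 88.1% of WT. Over all genes tested, 16.2% were called lower and 19.7% higher. Of all 78 members, 24 had every null library below every WT library, against 9.15% of all genes. With all 30 libraries in one fit, where the other days also set the spread, 10 were lower and none was higher.

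The lowest value was that of *Mrpl53* at -1.14 ± 0.35, which rests on few counts and on exons shared with Gm42688. Next came *Mrps27*. It had 52.9, 59.3, 54.6, 48.5 and 60.7 CPM in WT and 31.3, 29.4, 29.2, 30.9 and 29.9 CPM in Abcb10-null cells. The genotypes did not overlap, the null libraries lay within a narrow range, and the log2 fold change was -0.88 ± 0.073 (edgeR adjusted p = 2.63e-08). Another transcript, 6430562O15Rik, covers 24.2% of its exons from the opposite strand. *Mrpl52* had 54.4, 48.3, 68.2, 52.4 and 50.9 CPM in the null libraries, all below those of WT given above (-0.79 ± 0.091). *Mrpl12* had 126, 103, 119, 97.7 and 85.2 CPM, also all below WT (-0.55 ± 0.095). Other members lower at day 0 were *Mrpl33* (-0.54), *Mrps34* (-0.51), *Mrps31* (-0.49) and *Mrpl38* (-0.43). The 2 members that were higher were *Mrpl19*, a protein of the subunit interface, and *Mrpl2*, at 116% and 116% of WT. The WT libraries had 198, 189.6, 186, 171 and 168 CPM of *Mrpl19* and the null libraries 211, 212, 203, 228 and 213 CPM. They did not overlap (0.22 ± 0.06), while Gcfc2, which runs the other way, covers 36% of the exon bases of *Mrpl19*. For *Mrpl2* the values were 107, 99.9, 95.9, 101 and 99.2 and 107, 120.3, 122, 117 and 118 CPM (0.21 ± 0.059). *Mrps25* (0.14) and *Mrpl49* (0.16) were the next highest and were not called. Of the exon bases of *Mrps25*, 69.8% are shared with Nr2c2 on the opposite strand. Neither the calls of *Mrpl19* and *Mrpl2* nor those of *Mrps34*, *Mrpl38*, *Mrps18b* and *Mrps18c* held with all 30 libraries in one fit.

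**Figure D5:**
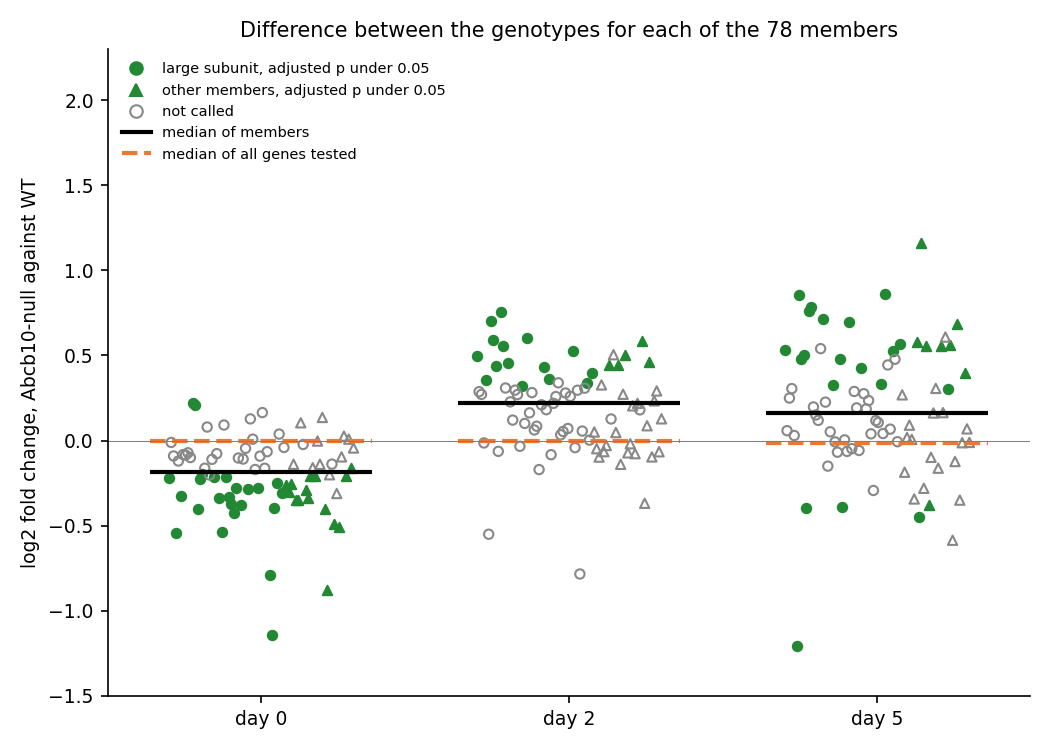
Difference between Abcb10-null and WT cells as a log2 fold change (vertical axis) for each member at days 0, 2 and 5 (horizontal axis). Filled symbols are called, open symbols are not, circles are the large subunit and triangles the other members, the black line is the median of the members and the dashed line that of all genes tested. The median moved from -0.18 at day 0 to 0.22 at day 2 and 0.16 at day 5.

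At day 2 the order had turned: 20 members were higher in Abcb10-null cells and none was lower, with a median of 0.22, where 14.9% of all genes tested were higher. Of all 78 members, 17 had every null library above every WT library, against 8.01% of all genes. Only 9 were called without WT replicate 1, without WT replicate 2, without Abcb10-null replicate 1 or without Abcb10-null replicate 4, and 33 with all 30 libraries in one fit. Of the 20, *Mrpl19* had the largest difference. It had 69.1, 66.5, 70.1, 82.3 and 76.2 CPM in WT and 137, 129.8, 122, 131 and 114 CPM in Abcb10-null cells, with no overlap and a log2 fold change of 0.75 ± 0.10 (edgeR adjusted p = 0.000888). *Mrpl15*, another large-subunit protein with a bacterial relative, followed at 0.70 ± 0.13, then *Mrpl32*, a large-subunit protein that is cut by a mitochondrial protease before assembly, at 0.60 ± 0.16, and *Mrpl16* at 0.59 ± 0.16. By class, 11 of 30 large-subunit proteins with a bacterial relative and 4 of 21 found only in mitochondria were called higher. In the small subunit the counts were 2 of 16 and 3 of 10. *Mrps27*, called lower at day 0, was not called at day 2 (-0.08 ± 0.14; 25.01 ± 3.07 and 24.5 ± 3.64 CPM). *Mrpl14* had 28.7, 27.4, 56.1, 55.6 and 45.8 CPM in WT and 17.6, 44.98, 24.7, 21.5 and 40.8 CPM in Abcb10-null cells. Both genotypes were widely spread, and the difference was not called (-0.55 ± 0.28), although it was without the filter on low counts (edgeR adjusted p = 0.02). The value furthest from 0 at day 2, that of *Mrpl53* (-0.78), was not called.

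At day 5, 23 members were higher and 5 lower in Abcb10-null cells (median 0.16), where 19.8% of all genes tested were higher and 17.8% lower. Without the filter, with every gene of at least 1 count in the test, 13 were higher and 1 lower. Of the 23 higher members, *Mrps18b* had the largest difference. It had 5.47, 4.49, 5.75, 6.07 and 6.76 CPM in WT and 9.72, 10.6, 12.3, 12.8 and 18.9 CPM in Abcb10-null cells. All null libraries lay above all WT libraries, with replicate 5 highest in both, and the log2 fold change was 1.163 ± 0.21 (edgeR adjusted p = 0.000857). *Mrpl52* had 19.7, 34.6, 34.3, 25.1 and 29.1 CPM in the null libraries against 15.5, 10.5, 16.05, 12.5 and 23.8 CPM in WT. Only the lowest null and the highest WT library crossed, and the difference was 0.86 ± 0.22. *Mrpl15* had 44.5, 28.98, 36.9, 31.6 and 45.8 CPM in WT and 58.3, 68.3, 76.9, 63.5 and 73.4 CPM in Abcb10-null cells, without overlap (0.85 ± 0.14). Also higher were *Mrpl2* (0.79), *Mrpl19* (0.76), *Mrpl24* (0.72), *Mrpl38* (0.70), *Mrps35* (0.69) and *Mrps31* (0.56). Rrnad1, on the opposite strand, covers 26.3% of the exon bases of *Mrpl24*.

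The 5 that were lower at day 5 were led by *Mrpl14*, a conserved protein of the subunit interface. It had 44.1, 28.6, 46.2, 39.8 and 41.5 CPM in WT and 20.3, 15.4, 18.1, 18.3 and 15.04 CPM in Abcb10-null cells. The genotypes did not overlap, and the log2 fold change was -1.21 ± 0.15 (edgeR adjusted p = 6.78e-05). *Mrps18a* (-0.45 ± 0.12) also had separate libraries. *Mrpl18* (-0.39 ± 0.14), *Mrpl35* (-0.39 ± 0.14) and *Mrps21* (-0.38 ± 0.11) differed by less. The calls of *Mrpl18* and *Mrpl35* each held in only 4 of the 10 fits with 1 library removed and were lost with the replicate block (edgeR adjusted p = 0.0856 and 0.0546). All of the 5 but *Mrpl14* lost their call without the filter.

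Across the 3 days, 2 members, *Mrpl2* and *Mrpl19*, were higher in Abcb10-null cells each time, and 2, *Mrpl14* and *Mrpl35*, were lower at both day 0 and day 5. Another 8, out of 37 lower at day 0 and 23 higher at day 5, were both: *Mrpl1*, *Mrpl38*, *Mrpl52*, *Mrpl55*, *Mrps2*, *Mrps18b*, *Mrps26* and *Mrps31*. The share of all genes with each of these patterns was not computed, so the counts only list members. The 20 members called at none of the 3 days include *Mrps28*, *Mrpl10*, *Mrpl11*, *Mrpl4*, *Mrpl44*, *Mrpl45*, *Mrpl46* and *Mrps36*.

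Whether the course of differentiation itself differed was asked with the interaction of genotype and day, over 20 libraries. Between days 0 and 2 the change of 36 members differed, and in all 36 it was higher in Abcb10-null cells, as a smaller fall or as a rise (over all 78, median difference 0.40 on the log2 scale, with 12% of all genes tested higher and a median of 0.02). Between days 0 and 5, 32 were higher and 2 lower (median 0.40, with 16.8% and 14.7% of all genes), and without the filter on low counts 21 were higher and 1 lower. The largest differences to day 2 were *Mrpl52* (1.13 ± 0.22), *Mrps31* (1.12 ± 0.20), *Mrpl32* (0.98 ± 0.19) and *Mrps27* (0.85 ± 0.15). To day 5 they were *Mrpl52* (1.66 ± 0.24), *Mrpl53* (1.6 ± 0.54), *Mrps18b* (1.47 ± 0.21) and *Mrpl38* (1.14 ± 0.21), with *Mrps31* at 1.07 ± 0.17. The call of *Mrpl53* was lost without the filter on low counts (edgeR adjusted p = 0.223) and with the replicate block (edgeR adjusted p = 0.0587). The 2 members that fell further in Abcb10-null cells were *Mrpl14* (-0.87 ± 0.19) and *Mrps18a* (-0.41 ± 0.13), the latter not called without the filter (edgeR adjusted p = 0.346). These interactions share their day 0 libraries with the comparison of genotypes at day 0. From day 2 to day 5, 1 member differed, *Mrps18a* (-0.63 ± 0.17, edgeR adjusted p = 0.0398, with 1.77% of all genes higher and 2.94% lower). Removing 1 library at a time kept this call in 2 of 20 fits. DESeq2 called 3 members and the fit of all 30 libraries 4, among them *Mrpl32* and *Mrpl47*.

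Bacterial protein S18 has 3 mammalian paralogs. *Mrps18c*, the form in the small subunit at the place of the bacterial protein, had 74.97, 74.7, 87.6, 73.2 and 73.9 CPM at day 0 and 71.7, 50.1, 65.3, 58.3 and 57.05 CPM at day 5 in WT cells, a fall of -0.35 ± 0.10 with separate libraries, and was not called in Abcb10-null cells (-0.28 ± 0.15). In WT it was not called when the 30 libraries were fitted together (edgeR adjusted p = 0.0671), and the fall in Abcb10-null cells was called without the filter (edgeR adjusted p = 0.0153). Of the exon bases of *Mrps18c*, 23.2% are shared with Gm43511 on the same strand. *Mrps18b*, the other small-subunit form, fell by far more in WT (-2.40) than in Abcb10-null cells (-0.94). *Mrps18a*, the form in the large subunit, had 20.2, 20.6, 24.95, 25.8 and 24.3 CPM in WT and 15.9, 17.2, 17.7, 16.4 and 18.3 CPM in Abcb10-null cells at day 5, and fell more in Abcb10-null (-1.44) than in WT cells (-1.03). At day 0 *Mrps18a* was not called (-0.02 ± 0.074), and *Mrps18b* (-0.29) and *Mrps18c* (-0.34) were lower in the null libraries.

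The rest of the mitochondrial translation pathway was read from lists of genes named by function. The 5 other ribosome subunits were all lower at day 5 in both genotypes: in WT, Gadd45gip1 changed by -1.35, Ptcd3 by -1.21, Chchd1 by -0.86, Dap3 by -0.77 and Aurkaip1 by -0.56. Of 23 factors for ribosome assembly and rRNA modification tested, 14 were lower and 4 higher in WT cells (median -0.62). Noa1, a GTPase of small-subunit assembly, changed by -0.64, and Nsun4, an rRNA methyltransferase, was higher by 0.67. Of 15 translation factors, 9 were lower and 2 higher (median -0.54), with the elongation factors Tufm at -2.0, Tsfm at -1.97 and Gfm1 at -1.61. Of 17 mitochondrial tRNA synthetases, 12 were lower and 2 higher (median -0.90). Of 16 factors of mitochondrial transcription and mRNA handling, 13 were lower and none higher (median -1.11), among them Lrpprc, which stabilizes mitochondrial mRNA, at -1.69 and Tfam, which packages mitochondrial DNA, at -1.29. Over all genes tested, 34.7% were lower and 36.5% higher in WT. In Abcb10-null cells the corresponding counts were 11 lower and 4 higher, 6 and 2, 10 and 0, and 11 and 3, where 33.3% of all genes were lower and 33.9% higher. At day 5, 8, 4, 6 and 7 of these 4 lists were higher in Abcb10-null than in WT cells and 3, 0, 0 and 2 lower, where 19.8% of all genes were higher and 17.8% lower, so that the share of translation factors higher (4 of 15) lay near that of all genes. Tufm was higher on each day (0.32, 0.69 and 0.91).

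Cytosolic ribosomal proteins and respiratory chain subunits are given beside these, with no test between the groups of genes. Of 79 cytosolic ribosomal protein genes tested, 66 were lower at day 5 in WT (median -0.60, with 34.7% of all genes tested lower). In Abcb10-null cells 32 were higher and 5 lower (median 0.17, with 33.9% and 33.3% of all genes). The share higher thus lay near that of all genes. Between the genotypes at day 5, 55 were higher and none lower (median 0.53, with 19.8% and 17.8% of all genes). The median of the mitochondrial members was 0.16. The change to day 5 differed between genotypes for 68 of the 79 (median 0.79) and for 34 of the 78 mitochondrial members (median 0.40). Over all genes tested it was higher in Abcb10-null cells for 16.8% and lower for 14.7%. Of 77 nuclear-encoded subunits of the respiratory complexes, 49 were lower and 7 higher in WT (median -0.43) and 39 lower and 15 higher in Abcb10-null cells (median -0.21). The shares of all genes were 34.7% lower and 36.5% higher in WT, and 33.3% and 33.9% in Abcb10-null cells. At day 0 the medians of all 3 groups were below 0 in Abcb10-null against WT cells, at -0.24 for cytosolic ribosomal proteins, -0.19 for respiratory subunits and -0.18 for mitochondrial ribosomal proteins. Of 15 mitochondria-encoded transcripts, the mRNAs that these ribosomes translate and both rRNAs, 9 passed the filter on low counts. The values below leave out the rest, and how reads that map to several places were counted is not stated. Before DMSO, 8 of the 9 were lower in Abcb10-null cells (median -0.85, with 16.2% of all genes tested lower), with mt-Cytb at -2.03. At day 2 none was called (median -0.21), and at day 5, 4 were lower and none higher (median -0.99, with 17.8% of all genes lower). Both mitochondrial rRNAs were targets of the depletion probes, so their counts do not measure their level. Of 12 regulators of nuclear genes for mitochondria, 6 were lower and 1 higher in WT cells between days 0 and 5, from -1.28 to 1.35. In Abcb10-null cells 3 were lower and 5 higher, from -0.66 to 3.23. Among the 12, Myc changed by -1.21 in WT and by 0.03 in Abcb10-null cells, and Atf4 by -1.09 and 0.82. At day 5, 6 of the 12 were higher in Abcb10-null than in WT cells and none lower, with Atf4 at 1.43, Myc at 0.84 and Esrra at 0.84. Over all genes, 19.8% were higher and 17.8% lower.

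The promoters of the members were read from RefSeq on GRCm38.p6 to show what the group shares beyond its symbol. RefSeq gave 75 promoters for 69 of the 78 members. Within 250 bases before to 50 after the start, 40% held the ETS letters ACTTCCG or CCGGAAG on either strand, the core bound by factors such as GABP (NRF2), against 22.9% of the promoters of protein-coding genes tested at day 0 and 10.9% of all. YY1 letters (AAGATGGC, either strand) stood in 16% against 4.78% and 2.75%. NRF1 letters (GCGC, any 2 bases and GCGC again) stood in 18.7% against 13.9% and 6.23%. The shares of CCAAT (40% against 38.5% of expressed genes), of the E-box CACGTG (9.33% against 10.1%), of GGGGCGGGG (20% against 22%) and of TATAAA (6.67% against 6.48%) lay close to those of other expressed genes. The median GC content was 58.7%, with 61% for expressed genes. Between days 0 and 5 in WT cells the median log2 fold change was -1.17 over 30 members with ETS letters and -0.97 over 39 without, -1.32 over 12 with YY1 letters and -1.04 over 57 without, and -0.82 over 14 with NRF1 letters and -1.22 over 55 without. These are descriptions of letters in a window, with no test.

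The 150 bases before the RefSeq start are printed for 6 members, chosen after their values were seen, from one that fell deeply in WT cells to one that was not called. They are *Mrpl52* (-2.59; chr14:54426759-54426908, plus strand), *Mrps22* (-1.53; chr9:98601680-98601829, minus strand), *Mrpl34* (-1.45; chr8:71464776-71464925, plus strand), *Mrpl58* (-1.19; chr11:115403602-115403751, plus strand), *Mrps17* (-0.37; chr5:129715347-129715496, plus strand) and *Mrps36* (0.07; chr13:100744660-100744809, minus strand). All are 5′ to 3′ on the gene's strand, in GRCm38.p6. Capitals mark the ETS letters given above, on either strand. The first 5 hold at least 1 match and the window of *Mrps36* holds none. That order comes from the choice of the 6: the 39 members without ETS letters in the longer window include *Mrpl12* (-2.49), one of those that fell most.
Mrpl52: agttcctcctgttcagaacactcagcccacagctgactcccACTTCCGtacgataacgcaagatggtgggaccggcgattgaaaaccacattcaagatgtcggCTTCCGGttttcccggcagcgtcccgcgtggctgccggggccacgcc
Mrps22: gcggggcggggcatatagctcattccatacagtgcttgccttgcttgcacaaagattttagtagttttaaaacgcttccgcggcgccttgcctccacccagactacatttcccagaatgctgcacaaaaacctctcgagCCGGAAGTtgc
Mrpl34: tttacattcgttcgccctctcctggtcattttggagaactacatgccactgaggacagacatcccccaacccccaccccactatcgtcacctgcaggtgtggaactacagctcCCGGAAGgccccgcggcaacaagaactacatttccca
Mrpl58: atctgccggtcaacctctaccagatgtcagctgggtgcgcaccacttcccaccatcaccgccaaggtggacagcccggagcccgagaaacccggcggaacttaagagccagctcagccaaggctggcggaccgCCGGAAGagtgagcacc
Mrps17: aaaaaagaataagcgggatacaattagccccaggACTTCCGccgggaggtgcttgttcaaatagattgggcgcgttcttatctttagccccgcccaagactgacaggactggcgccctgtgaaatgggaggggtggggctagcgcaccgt
Mrps36: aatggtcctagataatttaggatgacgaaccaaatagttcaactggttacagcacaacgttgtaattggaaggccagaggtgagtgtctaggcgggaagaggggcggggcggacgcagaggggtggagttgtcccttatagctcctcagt

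Many members start close to a gene that runs the other way. For 33 of the 78 (42.3%), another protein-coding gene started within 1 kb on the opposite strand. The share was 18.5% of protein-coding genes tested at day 0 and 10.9% of all. Counted here are starts that lie back to back and also pairs whose 5′ ends overlap, such as *Mrpl46* with *Mrps11* and *Mrpl18* with Tcp1. *Mrpl46* and *Mrps11* are each other's neighbour and changed by -1.27 and -1.01 in WT cells. Of the 28 neighbours tested that are no members, 15 were lower and 10 higher at day 5 in WT cells. Over all genes tested, 34.7% were lower and 36.5% higher, so the share of neighbours that were higher lay near that of all genes. The neighbours had a median of -0.38, while the members beside them had a median of -1.17. Some pairs changed together, such as *Mrps12* (-1.74) with Sars2 (-2.0), the mitochondrial seryl-tRNA synthetase, *Mrps27* (-2.17) with Ptcd2 (-1.66) and *Mrpl18* (-1.25) with the chaperonin gene Tcp1 (-1.37). Others parted, such as *Mrps18b* (-2.40) with Ppp1r10 (0.87) and *Mrpl2* (-1.45) with the kinesin light chain gene Klc4 (1.90). Across the 28 pairs the Pearson r of the changes was 0.22.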

How the data were processed

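RNA from 30 libraries of MEL cells (5 for each genotype and day) was analysed. Per the methods and the labels, ribosomal and globin RNA were depleted, stranded libraries were sequenced as read pairs, adapters were trimmed with cutadapt, and reads were aligned to GRCm38 with STAR 2.6.1b and assigned to Ensembl genes with featureCounts 1.6.3. The strand and multimapping settings of the counting are not given in the sources used here. The deposited values are the authors' raw counts per gene, without normalization or filter. Of 54532 genes, 9219 had no count, and 123 identifiers absent from the annotation used here held 0.0304% of the counts.

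Counts were tested with edgeR 4.0.16 in R 4.3.3 (TMM, filterByExpr, quasi-likelihood F test; p-values adjusted by Benjamini-Hochberg over every gene in the test, threshold 0.05). Each comparison used the libraries of its own groups, and interactions used the 20 libraries of 2 days. The test was checked on simulated counts with 200 changed genes. These had the same spread for every gene and equal numbers of genes raised and lowered. The check therefore does not cover the spread of these replicates or changes in most genes. CPM were computed with TMM-scaled library sizes over all 30 libraries, and FPKM by dividing by the length of all exon bases. With 9906783 to 20157768 counts per library, depth limits precision mainly for Mrpl53, which had 7 counts in its lowest library. Alternatives were DESeq2 1.42.0, its size factors in edgeR, library size alone, no filter or a stricter one, all 30 libraries in one fit, removal of 6135 globin, mitochondria-encoded and small RNA genes, the replicate number as a block, and leaving out each library.

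The members and lists were chosen with earlier results of these data known. Named genes were set by role, by the 4 highest and 4 lowest changes in each comparison, by calls against the median's sign, and by the 3 highest and 3 lowest levels per length. Members whose values by library are given were chosen from these after their values were seen. Deviations of same-numbered libraries of different groups from their group means correlated from -0.36 to 0.47 over 75 pairs (median -0.027, 14 over 0.1), so the numbers were not treated as pairs. Within groups no 2 libraries agreed within sampling noise (lowest chi-square per degree of freedom 6.23).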

Additional observations from a re-analysis of the deposited data

Results flagged for a closer look

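In 102 groups of 5 libraries (the summed level and 16 members whose values are given by library or mean, over 6 groups each), 5 held a library whose gap to the nearest other exceeded 0.71 of the group's range. Chance flags about 1 in 20 groups, which is as many as were found. They were Mrps27 at 30.4 CPM in WT day 2 replicate 4, Mrpl47 at 74.8 CPM in WT day 0 replicate 3, Mrps18c at 87.6 CPM in the same library, Mrps21 at 156 CPM in WT day 5 replicate 2, and Mrpl19 at 87.7 CPM in Abcb10-null day 5 replicate 4.

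The change between days differed between the genotypes by the interaction test for 36 members from day 0 to day 2, 34 from day 0 to day 5 and 1 from day 2 to day 5. From day 0 to day 2 the log2 difference, Abcb10-null minus WT, was 1.13 for Mrpl52, 1.12 for Mrps31, 0.98 for Mrpl32 and 0.85 for Mrps27. From day 0 to day 5 it was 1.66 for Mrpl52, 1.6 for Mrpl53, 1.47 for Mrps18b, 1.14 for Mrpl38, 1.07 for Mrps31, -0.87 for Mrpl14 and -0.41 for Mrps18a. The last value and that of Mrpl53 lost their call without the filter on low counts (edgeR adjusted p = 0.346 and 0.223), and that of Mrpl53 also with the replicate block (edgeR adjusted p = 0.0587). From day 2 to day 5 the difference was -0.63 for Mrps18a.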

How the results depend on the processing

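The count of members called stayed within 1.5 times its value under most alternatives. With all 30 libraries in one fit it was 10 in place of 39 between the genotypes at day 0, 33 in place of 20 at day 2 and 4 in place of 1 for the interaction from day 2 to 5. With all genes with at least 1 count tested it was 14 in place of 28 at day 5, 22 in place of 34 for the interaction from day 0 to 5, and 0 for that from day 2 to 5. That last count was 3 with DESeq2, 0 with library size alone and 0 with the replicate block. The block is no pairing here, since same-numbered libraries shared only a number; it gave 35, 16 and 24 members between the genotypes at days 0, 2 and 5, 33 and 32 for the interactions from day 0, and from 36 to 74 within genotypes. Leaving out 1 library gave 30 to 45, 9 to 25 and 20 to 32 members between the genotypes at days 0, 2 and 5. In WT it gave 66 to 71 (day 2 against 0), 72 to 75 (day 5 against 0) and 16 to 36 (day 5 against 2), and in Abcb10-null cells 35 to 43, 65 to 69 and 40 to 46. For the interactions it gave 29 to 42, 31 to 46 and 0 to 2. Of 1037 values of named members under the 8 alternatives that kept all libraries, 23 lost and 20 gained a call and 0 called values changed sign. Library size alone moved the median of all genes by 0.22 in WT at day 2, where the members' median was -0.54. For day 5 against 0 the median of all genes tested was 1.35 in WT and 1.53 in Abcb10-null cells without the filter (members -1.16 and -0.85), and 0.48 and 0.42 with DESeq2 (members -1.13 and -0.77). The cause of these shifts was not tested.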
